A study of Mus musculus with 3 samples.

Results

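Kupffer cells are the resident macrophages of the liver and sit in the sinusoids, where they clear bacteria, dying cells and debris from portal blood. They are recognised by scavenger and complement receptors (Marco, Vsig4, Timd4), a lectin (Clec4f), a secreted scavenger protein (Cd5l), and genes that most tissue macrophages share (Adgre1, Csf1r, Cd68, Mpeg1). These 9 marker genes were taken from the array by name: every probe set that listed exactly 1 gene symbol, and that symbol a member, was used, which gave 12 probe sets for 9 of the 18193 genes so read. The probe set with the highest mean over the arrays stood for a gene, and the others are given beside it.

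Total RNA from the livers of 3 mice on a mixed background, 3 months old, was hybridised to 1 single-colour array each. The control livers (n = 2 mice) came from mice given MUP-EGFP-AAV8, an adeno-associated virus carrying green fluorescent protein, and the Cre liver (n = 1 mouse) from a mouse given MUP-iCre-AAV8, which carries the iCre recombinase that removes floxed DNA. Every mouse received 1 intraperitoneal injection of 400 microL of virus and was sampled 1 week later, so all groups carried an AAV and no uninjected liver was analysed here. Genotype is given in conflicting ways: floxed Hnf4a mice in both groups by the series text, but wild type (control virus) and HNF4alpha knockout (Cre virus) by the labels of each sample. A genotype difference present before injection therefore cannot be told apart from the effect of the virus. The labels do not state which cells the MUP viruses enter or express in. HNF4alpha is a nuclear receptor of hepatocytes, and the study asked what its loss does to liver expression.

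The deposited values are log2 expression from RMA, with array medians between 4.15 and 4.18, and Pearson's r over probe sets was 0.993 between the controls and 0.970 and 0.972 between the Cre liver and each control. Arrays have no read depth, and their number limits the precision. All 4 Hnf4a probe sets read lower with Cre virus than with control virus; 1421983_s_at read 7.69 and 7.72 in the control livers and 6.52 with Cre virus (-1.18 ± 0.14 SE, limma adjusted p = 0.0303 over 25660 probe sets) and the other 3 did not pass in that fit. In the fit over genes Hnf4a, read by its brightest probe set at 11.91 and 11.96 in the control livers and 11.38 with Cre virus, fell by 0.55 (limma adjusted p = 0.0401), but not without an intensity trend (adjusted p = 0.0978), without a filter (0.0672) or without probe sets ending in _s_at, _x_at or _a_at (0.184). Where those probe sets lie relative to the floxed part was not analysed here. The hepatocyte gene Alb read 14.75 and 14.72 in the control livers and 14.62 with Cre virus. All 9 marker genes passed the filter on dim genes, a mean of at least 3.77, with Timd4 (35.1 percentile of all gene means) and Cd68 (37.4 percentile) closest to it. Each difference is the Cre value minus the mean of the controls in log2 units, and its standard error (SE) is limma's moderated one. The words rose and fell are kept for genes with a limma adjusted p under 0.05 over the 12735 fitted genes.

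In the liver given the Cre virus, 2 of the 9 markers rose, Marco and Mpeg1, each nearly 4 times as high as the control mean (3.69-fold and 3.86-fold), and 0 fell. Over all fitted genes 6.71% rose and 5.21% fell. By unadjusted p under 0.05 the count was 3 higher, with Timd4 the third, and 0 lower; over all fitted genes 20.4% were higher at that p and 31.2% passed it in either direction, against 33.3% of the markers. The other 7 markers did not pass, although 6 of them, Timd4, Cd5l, Vsig4, Clec4f, Adgre1 and Cd68, read higher in the Cre liver than in both controls. Cre stood above both controls in 8 of 9 markers and in 49.7% of all fitted genes, and below both in 0 of 9 markers and 33.6% of fitted genes. RNA from whole liver does not show which cells gave these signals. More macrophages and more of these transcripts per macrophage cannot be told apart in it either.

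**Figure D1:**
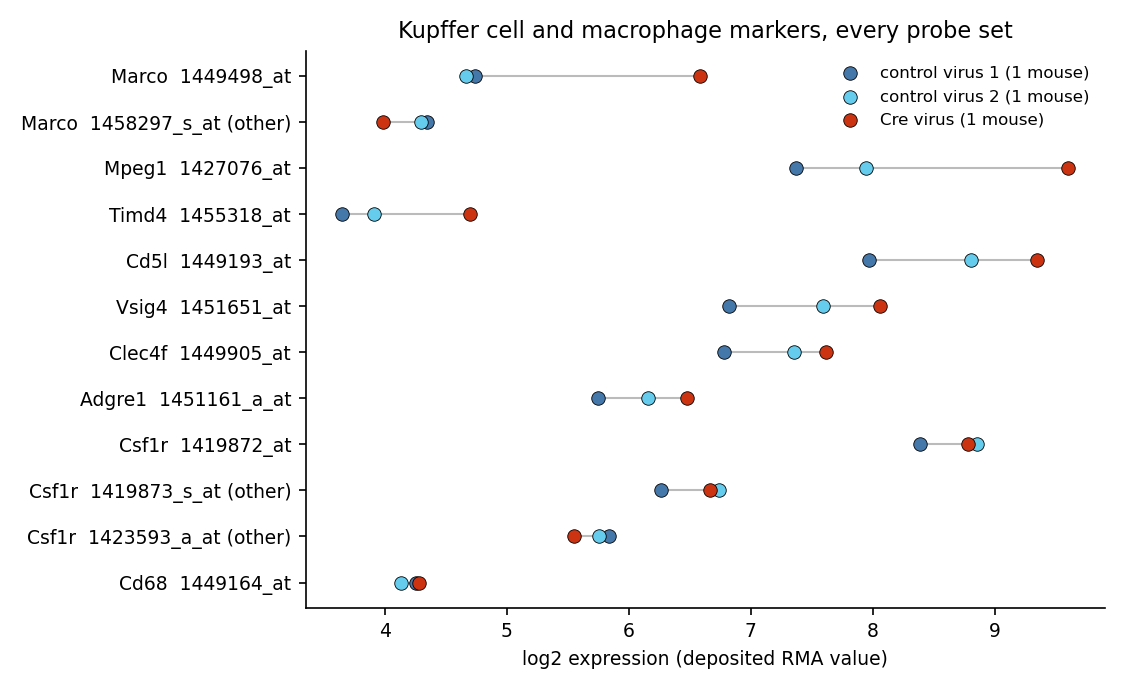
Deposited log2 expression (x axis) of every probe set of the 9 markers (y axis), 1 point per liver, with a grey line over the range of the 3 livers; probe sets marked "other" are not the one with the highest mean. The Cre point of Marco (1449498_at, 6.58) and of Mpeg1 (9.60) lies far to the right of both controls, whereas Csf1r and Cd68 overlap with the controls or nearly so.

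Among the receptors for particles and dying cells, Marco, a class A scavenger receptor that binds bacteria and particles, was read by probe set 1449498_at at 4.74 and 4.67 in the control livers and at 6.58 in the Cre liver. The controls differed by only 0.07, and the Cre liver was 1.85 above one and 1.92 above the other. The difference was 1.88 ± 0.16 SE (limma adjusted p = 0.0097). A second Marco probe set, 1458297_s_at, for which the platform table lists no accession, went the other way, from 4.34 and 4.30 in the controls to 3.98 in the Cre liver, without passing (-0.34 ± 0.17 SE, limma adjusted p = 0.297 over 25660 probe sets). The rise of Marco therefore rests on 1 probe set, and the mean of both gave 0.77 (adjusted p = 0.0343). Timd4, which binds phosphatidylserine on dying cells and marks long-lived resident macrophages, read 3.65 and 3.91 in the control livers and 4.69 with Cre virus. The Cre liver was 1.04 and 0.78 above the controls, which differed by 0.26, and the gene did not pass (0.91 ± 0.21 SE, limma adjusted p = 0.0679). Its control mean of 3.78 lies at the filter value, so its size is uncertain, and with a filter on the control arrays alone Timd4 was not fitted. In 8 other settings its adjusted p lay between 0.0414 and 0.104, and it passed under 3 of them: each array centred on its median, quantile normalization, and averaging over probe sets.

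Mpeg1, which encodes perforin-2, a pore-forming protein that phagocytes use against engulfed bacteria, read 7.37 and 7.94 in the control livers and 9.60 with Cre virus on its only probe set. The Cre liver was 2.23 above control 1 and 1.66 above control 2, and the controls differed from each other by 0.57. The difference was 1.95 ± 0.27 SE (limma adjusted p = 0.0262). Marco and Mpeg1 were also the 2 markers at least 1 log2 unit above both controls, a distance reached by 3.67% of fitted genes upwards and by 3.72% downwards. Both differences stood at the 99.1 percentile of the differences of all fitted genes. Over 10 other settings the adjusted p ranged from 0.0017 to 0.0343 for Marco and from 0.0022 to 0.0488 for Mpeg1.

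Promoters are shown for Marco and Mpeg1, which rose, and for comparison for Cd5l and Vsig4, which did not pass. RefSeq promoter windows (GRCm38.p6, 250 bases before to 50 after the annotated start, on the gene's strand) matched 7 of the 9 genes. They were searched on both strands for the PU box GAGGAA, the core bound by the macrophage factor PU.1, and for the HNF4A motif CAAAGTCCA. Capitals mark a PU box on either strand (TTCCTC where it lies on the opposite strand). No HNF4A motif, and so no overlap between motifs, was present in the 7 windows. The windows are chr1:120504975-120505274 (minus strand) for Marco, chr19:12460520-12460819 (plus strand) for Mpeg1, chr3:87357631-87357930 (plus strand) for Cd5l and chrX:96293389-96293688 (minus strand) for Vsig4.
Marco: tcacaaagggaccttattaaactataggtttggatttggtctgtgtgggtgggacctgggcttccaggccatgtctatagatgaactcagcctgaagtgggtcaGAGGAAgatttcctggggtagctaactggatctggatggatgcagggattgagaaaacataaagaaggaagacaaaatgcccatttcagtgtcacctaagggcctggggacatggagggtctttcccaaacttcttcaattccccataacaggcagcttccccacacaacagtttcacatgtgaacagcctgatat
Mpeg1: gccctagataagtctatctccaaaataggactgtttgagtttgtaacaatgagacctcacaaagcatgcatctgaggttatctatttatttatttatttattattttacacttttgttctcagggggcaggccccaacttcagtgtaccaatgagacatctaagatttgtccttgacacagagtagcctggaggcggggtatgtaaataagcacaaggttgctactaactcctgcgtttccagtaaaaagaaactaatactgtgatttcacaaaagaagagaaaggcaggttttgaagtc
Cd5l: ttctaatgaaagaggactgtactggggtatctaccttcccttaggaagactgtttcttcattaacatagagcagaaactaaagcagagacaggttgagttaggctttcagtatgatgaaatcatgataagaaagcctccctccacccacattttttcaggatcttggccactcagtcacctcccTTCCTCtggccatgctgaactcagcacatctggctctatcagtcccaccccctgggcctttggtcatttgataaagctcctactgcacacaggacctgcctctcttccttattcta
Vsig4: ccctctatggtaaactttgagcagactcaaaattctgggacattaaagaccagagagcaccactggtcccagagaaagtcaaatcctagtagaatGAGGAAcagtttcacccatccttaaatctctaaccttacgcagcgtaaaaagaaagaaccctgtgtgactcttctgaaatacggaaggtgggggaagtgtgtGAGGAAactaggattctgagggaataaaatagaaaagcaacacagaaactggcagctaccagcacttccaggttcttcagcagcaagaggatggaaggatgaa
The PU box was found in 4 of the 7 marker windows, those of Marco, Cd5l, Vsig4 and Cd68, and in 28.3% of 32851 mouse promoter windows. The Marco window held it once, 146 bases before the start, the Vsig4 window 155 and 53 bases before the start, and the Cd5l window once on the opposite strand, 66 bases before the start. The Mpeg1 window, of the other gene that rose, held none. The HNF4A motif was in 0.47% of all windows. Such matches describe letters and are not measured binding sites.

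Cd5l, Vsig4, Clec4f and Adgre1 had a different profile from Marco, Timd4 and Mpeg1. In each of them the gap between the control livers was larger than the gap between control 2 and the Cre liver. Cd5l, a scavenger protein that macrophages secrete into plasma, read 7.97 and 8.81 in the control livers and 9.35 with Cre virus. Vsig4, the complement receptor that captures C3b-coated particles, read 6.82 and 7.59 in the control livers and 8.06 with Cre virus. Control 2 exceeded control 1 by 0.84 in Cd5l and 0.77 in Vsig4, more than the 0.54 and 0.47 by which the Cre liver exceeded control 2. Neither passed, Cd5l at 0.96 ± 0.38 SE (limma adjusted p = 0.18) and Vsig4 at 0.86 ± 0.35 SE (limma adjusted p = 0.195).

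Clec4f, a C-type lectin that in mice marks Kupffer cells, followed the same order, with 6.78 and 7.35 in the control livers and 7.62 with Cre virus. Adgre1, which encodes the F4/80 antigen of mouse macrophages, read 5.75 and 6.16 in the control livers and 6.47 with Cre virus. The steps from control 1 to control 2 (0.57 and 0.41) were again larger than those from control 2 to the Cre liver (0.26 and 0.32). Clec4f was at 0.55 ± 0.28 SE (limma adjusted p = 0.263) and Adgre1 at 0.52 ± 0.23 SE (limma adjusted p = 0.216), so neither passed.

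Csf1r, the receptor for the growth factors CSF1 and IL-34 on which macrophages depend, was the 1 marker whose Cre value lay between the controls. Probe set 1419872_at read 8.38 and 8.85 in the control livers and 8.78 with Cre virus (0.16 ± 0.23 SE, limma adjusted p = 0.676). Against control 2 alone the Cre liver was lower by a difference of -0.07, and against control 1 alone it was higher by 0.40. Probe set 1419873_s_at gave nearly the same steps, with 6.27 and 6.74 in the control livers and 6.67 with Cre virus. Probe set 1423593_a_at, matched to a Csf1r transcript accession, did not share these steps. It read 5.84 and 5.75 in the control livers and 5.55 with Cre virus (-0.24 ± 0.16 SE, limma adjusted p = 0.404 over 25660 probe sets). For 1419872_at and 1419873_s_at the platform table lists no accession. The direction for Csf1r thus depended on the probe set and on the control. Cd68, a lysosomal glycoprotein of macrophages, read 4.25 and 4.13 in the control livers and 4.28 with Cre virus, a difference of 0.09 ± 0.18 SE (limma adjusted p = 0.772) smaller than the 0.12 between the controls.

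The control livers themselves differed in these markers. Control 2 was higher than control 1 in 7 of 9 markers and in 52.5% of all fitted genes. The order control 1, control 2, Cre from low to high held in 6 of 9 markers and in 27.8% of fitted genes. Neither trait was particular to the markers. Control 2 was also higher in 21 of 24 fitted pan-macrophage, 10 of 11 pan-leukocyte, 12 of 12 sinusoidal endothelial and 10 of 12 stellate genes. It was higher in 4 of 9 hepatocyte and 0 of 6 B cell markers. The rising order held in 81.8% of pan-leukocyte, 75.0% of stellate, 62.5% of pan-macrophage and 38.9% of other Kupffer genes. In Adgre1, Csf1r, Clec4f, Mpeg1, Vsig4 and Cd5l the gap between controls stood at the 94.1 to 99.3 percentile of all fitted genes, whereas Marco and Cd68 had gaps of -0.07 and -0.12. The median over the 9 markers was 0.86 against the control mean, 1.045 against control 1, 0.47 against control 2 and 0.47 between the controls. Over all fitted genes the same medians were 0.09, 0.09, 0.08 and 0.01. At least 1 log2 unit separated the Cre liver from control 1 in 5 markers, Marco, Mpeg1, Cd5l, Vsig4 and Timd4, and from control 2 in 2, Marco and Mpeg1, while the controls differed by that much in none. Among all fitted genes those shares upwards were 5.47%, 4.81% and 0.424%.

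**Figure D2:**
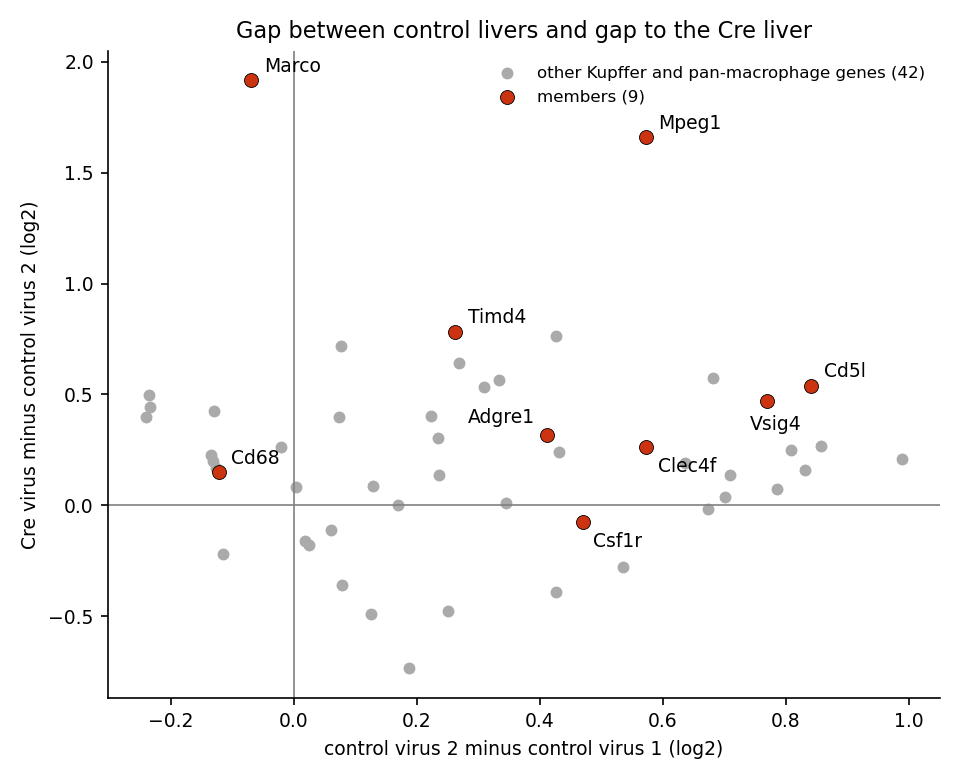
Log2 difference of control 2 minus control 1 (x axis) against the Cre liver minus control 2 (y axis) for the 9 markers (red, named) and 42 other fitted Kupffer and pan-macrophage genes (grey), 1 point per gene. Marco, at -0.07 and 1.92, and Mpeg1, at 0.57 and 1.66, stand above the other points, while Cd5l and Vsig4 lie further along the x axis than up the y axis.

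The fitted genes whose 3 values followed the median profile of the markers most closely, by Euclidean distance of the deviations from the gene mean over 3 arrays, were Stag2, Ctsd, Pus3, Mtrr and Ctc1. Ctsd, which encodes the lysosomal protease cathepsin D, read 9.21 and 9.74 in the control livers and 10.27 with Cre virus. Distances of these 5 genes lay between 0.078 and 0.083 log2 units, and none of the 5 passed the test.

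Other genes of the Kupffer cell did not pass. Of 20 such genes listed, 18 were fitted, 0 rose and 0 fell by limma, and 5 (27.8%, against 31.2% of all fitted genes) had an unadjusted p under 0.05. Cre stood above both controls in 12 of the 18 (66.7%, against 49.7% of all fitted genes) and below both in 3 (16.7%, against 33.6%). Their median difference was 0.30, against 0.09 over all fitted genes. The largest differences belonged to Il18bp, which binds interleukin-18 (0.98 ± 0.24 SE, limma adjusted p = 0.0782), Id3, a regulator of Kupffer cell identity (0.92 ± 0.32 SE), Cfp, which encodes properdin (0.76 ± 0.16 SE, adjusted p = 0.0578), and the chemokine gene Ccl24 (-0.64 ± 0.19 SE). Il18bp read 5.03 and 5.46 in the control livers and 6.23 with Cre virus, and Cfp 5.54 and 5.62 against 6.34. The other Cfp probe set, brighter in the controls, gave a difference of only 0.11. Both passed after median centring, so that 2 of the 18 rose in that setting. The haemoglobin scavenger receptor gene Cd163 (0.09) and Clec1b (-0.01) were close to the control mean.

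Of 28 pan-macrophage and phagocyte genes, 24 were fitted, with 0 higher and 0 lower by limma and a median difference of 0.37. An unadjusted p under 0.05 was reached by 5 (20.8%, against 31.2% of all fitted genes). Cre stood above both controls in 18 of the 24 (75.0%, against 49.7% of all fitted genes). It stood below both in 5 (20.8%, against 33.6%). The complement C1q genes repeated the gap between controls: C1qa read 6.68 and 7.54 in the control livers and 7.81 with Cre virus, C1qb 6.35 and 7.33 against 7.54, and C1qc 5.97 and 6.76 against 6.83. In each of the 3 the controls differed by more than the Cre liver differed from control 2. Sirpa, an inhibitory receptor of phagocytes (0.78 ± 0.20 SE), and Lyz2, macrophage lysozyme (0.73 ± 0.20 SE), had the largest differences, and Mertk, a receptor for engulfing dying cells, was at -0.43 ± 0.15 SE. Msr1, which like Marco encodes a class A scavenger receptor, read 6.92 and 7.05 in the control livers and 7.14 with Cre virus (0.15). Class II antigen presentation genes (6 fitted, 0 passed, none at an unadjusted p under 0.05) had a median gap of 0.77 between controls and of 0.14 between control 2 and the Cre liver, with Cd74 differing most from the control mean (0.64) and H2-Aa at 8.52 and 9.51 in the control livers and 9.46 with Cre virus.

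Genes shared by all leukocytes are expressed by macrophages as well, so they do not separate Kupffer cells from other blood cells. Cre stood above both controls in 10 of 11 fitted pan-leukocyte genes (90.9%, against 49.7% of all fitted genes), with 0 passing by limma. Of the 11, 6 had an unadjusted p under 0.05 (54.5%, against 31.2% of all fitted genes). The median of these genes was 0.48, with Cd52 highest (0.91 ± 0.20 SE, limma adjusted p = 0.0654). After median centring 2 of them, Cd52 and Laptm5, passed, but the Laptm5 probe sets disagreed: the brightest gave 0.70, their mean 0.03, and the one left without _s_at, _x_at or _a_at probe sets -0.72 (limma adjusted p = 0.0595, 0.926 and 0.0863). The summed linear signal of the 12 genes read was 996 and 1082 in the control livers and 1256 with Cre virus. Lcp1, the brightest of them (9.16 and 9.28 against 9.27), weighs most in that sum. Of 11 genes of recruited monocytes read, 5 were fitted and 0 passed (none at an unadjusted p under 0.05), their median was -0.09, and Ccr2, the receptor that brings monocytes out of the marrow, read 4.98 and 5.27 in the control livers and 4.72 with Cre virus. The summed signal of the monocyte genes was 235 and 274 in the control livers and 279.8 with Cre virus, with most weight on the brightest, Plac8 (6.62 and 7.11 against 7.22). Among T, B, NK, neutrophil and dendritic cell markers 0 of the fitted genes (4, 6, 2, 4 and 5) passed, none had an unadjusted p under 0.05, and the medians were 0.03, -0.33, 0.25, -0.25 and -0.32. Summed signals were 149 and 151 against 148 for T cells, 204 and 152 against 155 for B cells, 83.8 and 82.7 against 86.9 for NK cells, 144.0 and 135 against 118 for neutrophils and 161 and 172 against 141 for dendritic cells. RMA gives a value above 0 to unexpressed genes too, so for the dim ones low expression and absence cannot be told apart. Sinusoidal endothelial genes (12 fitted, 0 passed, 2 at an unadjusted p under 0.05, median 0.19) and stellate cell genes (12 fitted, 0 passed, 2 at an unadjusted p under 0.05, median 0.28) had smaller medians than the 9 markers. Even so, Cre stood above both controls in 7 of the 12 endothelial and 10 of the 12 stellate genes (58.3% and 83.3%, against 49.7% of all fitted genes). It stood below both in 1 and 0 (8.33% and 0%, against 33.6%). Their summed signals were 2385 and 2839 in the controls against 2640 in the Cre liver, and 3246 and 3557 against 4159. The part of these other cells in the values of the markers was not tested.

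**Figure D3:**
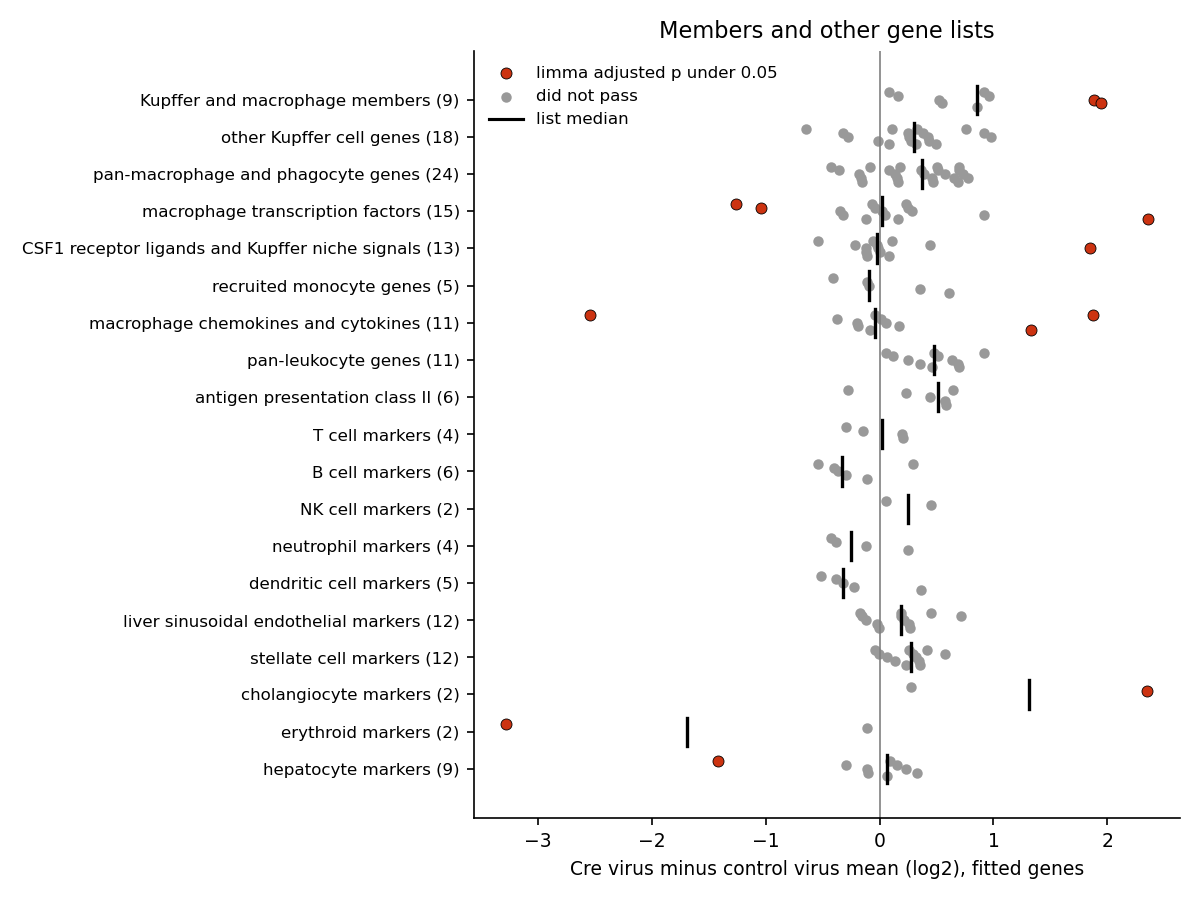
Log2 difference between the Cre liver and the control mean (x axis) for each fitted gene of the 9 markers and of 18 other lists (y axis, number of fitted genes in brackets); red points passed limma's adjusted p of 0.05, grey points did not, and black bars are list medians. The 2 red points of the markers are Marco and Mpeg1, and no gene of the other Kupffer, pan-macrophage and pan-leukocyte lists is red.

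Among ligand and niche genes 7.69% of the fitted genes rose and 0 fell, and among macrophage transcription factors 6.67% rose and 13.3% fell. Over all fitted genes 6.71% rose and 5.21% fell. Of 13 fitted ligand and niche genes, Notch1, a receptor for the niche ligand Dll4, rose from 7.21 and 7.46 in the controls to 9.18 (1.85 ± 0.17 SE, limma adjusted p = 0.0106), and 0 fell. Csf1, a ligand of Csf1r, read 5.51 and 5.22 in the control livers and 5.15 with Cre virus without passing, and Il34, the other ligand, was too dim to be fitted (3.36 and 3.47 against 3.30). Of 15 fitted macrophage transcription factors, Id1 rose from 5.37 and 5.98 to 8.03 (2.35 ± 0.30 SE, limma adjusted p = 0.0213), and Cebpa (-1.26 ± 0.13 SE) and Cebpb (-1.04 ± 0.12 SE), which hepatocytes also express, fell. Spi1, which encodes PU.1, read 4.20 and 4.17 in the control livers and 4.14 with Cre virus, and Irf8 5.43 and 5.35 against 5.43. Id1 was read by a probe set of the suffix _a_at. Leaving out such probe sets, and those ending in _s_at or _x_at, Id1 was no longer read. In that setting 0 of the 12 transcription factors still fitted rose.

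Of 20 chemokine and cytokine genes, 11 were fitted, and 2 rose and 1 fell (18.2% and 9.09%, against 6.71% and 5.21% of all fitted genes). Cxcl10, an interferon-induced chemokine, read 3.49 and 3.81 in the control livers and 5.52 with Cre virus (1.87 ± 0.22 SE, limma adjusted p = 0.0179). Its control mean of 3.65 was below the filter value, so it was fitted through its Cre value and its size is uncertain. The 18.2% therefore includes a gene that entered the test through the Cre liver. With a filter on the control arrays alone Cxcl10 was not fitted. In that setting 1 of 10 fitted genes of the list rose, beside 788 of all 12735 fitted genes. Ccl6 rose from 5.72 and 5.84 to 7.12 (1.33 ± 0.16 SE, limma adjusted p = 0.0184), and Ccl9, another CC chemokine gene, fell from 9.21 and 9.27 to 6.70 (-2.54 ± 0.13 SE, limma adjusted p = 0.0027). The inflammatory cytokine genes Tnf, Il6, Il10 and Il12b were below the filter, and Il1b read 4.14 and 4.22 in the control livers and 4.10 with Cre virus.

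**Figure D4:**
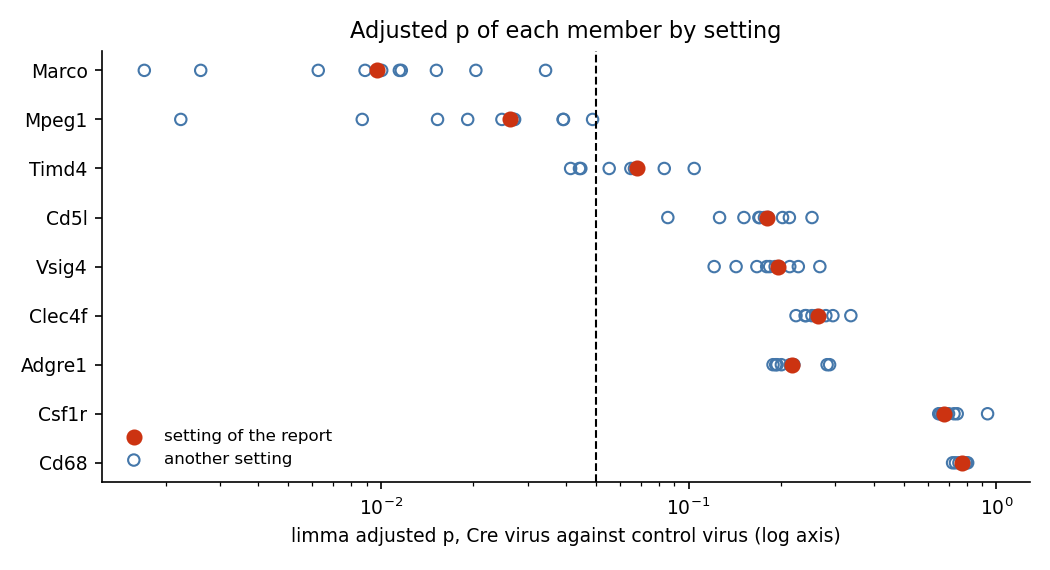
Limma's adjusted p (log x axis) of each marker (y axis) in the setting of the report (filled) and in up to 10 other settings (open), with a dashed line at 0.05. Marco and Mpeg1 stay left of the line in all settings shown, Timd4 falls on both sides of it, and the other 6 markers stay to its right.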

How the data were processed

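Expression was measured in 3 mouse livers, 2 with control virus and 1 with Cre virus, on 1 array each. The authors deposited log2 expression for each probe set; Partek 6.5 and RMA are named in the submitters' processing notes. RMA subtracts background, equalises arrays and summarises probes. No source used here states the log base, and base 2 follows from the range of the values.

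Of 45101 probe sets, 34945 listed 1 gene, and symbols were updated by Entrez ID with a GRCm38.p6 gene table. Genes at or above the 30th percentile of means (3.77) were fitted with limma 3.58.1 in R 4.3.3 (lmFit, eBayes with an intensity trend), with Benjamini-Hochberg adjustment, two-sided. The spread came from the controls (1 residual degree of freedom, 3.18 prior ones), and the single Cre array was taken to vary as they do. Single probe sets were fitted over 25660 probe sets past the same value. The fit was also run on simulated data in which all 3 arrays had the same spread. That run cannot check whether the single Cre array varies as the controls do. The labels call the control samples biological replicates.

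The members and the 18 other lists were chosen with earlier results of these data known, and no set test was run. All members were named, and from each list the genes that passed, up to 4 others with the largest differences, and members needed to describe the list, such as Cd163, Clec1b, Msr1, Spi1, Irf8, Il1b and H2-Aa, which were picked with their values seen. Id3, Nr1h3 and Spic are in 2 lists. Alternatives changed the moderation, filter, scaling, probe set rule or left out a control. Figures used matplotlib 3.10.9 in Python 3.11.15.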

Additional observations from a re-analysis of the deposited data

How the results depend on the processing

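Marco and Mpeg1 rose, and 0 markers fell, in all 10 other settings that gave a test. Timd4 passed as well after median centring (0.93, adjusted p = 0.0447), quantile normalization (0.92, adjusted p = 0.0414) and averaging over probe sets (0.91, adjusted p = 0.0442); the cause was not tested. Leaving out a control left 1 array per group and no test, so only values can be given. Csf1r then went from -0.0731 without control 1 to 0.40 without control 2. The median of the markers ranged from 0.47 to 1.045, and markers at least 1 log2 unit higher from 2 to 5, the higher values being those without control 2. With probe sets averaged, 1 marker (Mpeg1) was that far above both controls. Over all genes 855 rose and 663 fell; without a filter 446 rose, without shared or mixed probe sets 471 rose, and after quantile normalization 1000 fell. Among 158 fitted genes of the other lists 5 rose and 5 fell, 10 rose after median centring, and 3 rose and 3 fell without shared or mixed probe sets, which left 136 genes. No paired analysis was possible because the Cre group held 1 mouse and the labels give no pairing of mice. Signal limits Timd4 and Cd68, whose control values lie near the filter value, and Marco rests on 1 of its 2 probe sets.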

Other observations

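Single genes of other cell types passed. Sox9, a transcription factor of bile duct cells, read 3.87 and 4.82 in the control livers and 6.69 with Cre virus (2.35 ± 0.43 SE, limma adjusted p = 0.0452), and the controls themselves differed by 0.95. Its difference was 1.29 as the mean of its probe sets and 1.10 on the probe set brightest in the controls, and it did not pass without an intensity trend, without a filter or without probe sets ending in _s_at, _x_at or _a_at. Among the other bile duct genes, Epcam did not pass (0.28) and Krt19, Krt7 and Cftr were too dim to be fitted. Alas2, the erythroid form of the first enzyme of heme synthesis, fell from 8.61 and 8.92 to 5.49 (-3.27 ± 0.19 SE, limma adjusted p = 0.0034) on a probe set ending in _a_at. Among the other erythroid genes, Epor did not pass (5.31 and 5.46 against 5.27). Hba-a1 (2.62 and 2.79 against 2.70) and Slc4a1 (3.09 and 3.23 against 3.00) were too dim to be fitted. Whether the fall of Alas2 came from erythroid cells was not tested. Of 9 hepatocyte markers 0 rose and Serpina1b fell (11.1%, against 5.21% of all fitted genes), and 4 had an unadjusted p under 0.05 (44.4%, against 31.2%). Serpina1b (-1.42 ± 0.08 SE, limma adjusted p = 0.0031) was read by a probe set ending in _x_at. It is in a family of near-identical genes whose signals cannot be assigned with certainty. Cps1 (0.33, limma adjusted p = 0.075) passed after median centring (0.046), with a filter at the 50th percentile (0.0492) and after quantile normalization (0.0245). Ttr (-0.10) passed only with its probe sets averaged (-0.40, limma adjusted p = 0.0357).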
